A study of Mus musculus with 2 samples.

Results

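The regions described here are stretches of open chromatin that lay outside every annotated gene and more than 50 kb from every annotated transcription start site (TSS) in mouse neutrophils. They were chosen by position alone. Overlapping intervals of the authors' conservative peak list, which was made from both replicates, were merged into 24882 regions, and a region was kept when its summit met both conditions in GENCODE M21. That left 364 regions, or 1.46% of all (95% Wilson interval 1.32 to 1.62). The cells were neutrophils, the phagocytes that are among the first to reach infected tissue. They were primary cells of peripheral blood from C57BL/6J mice, adults of 5 to 6 weeks, and no purification step is named. ATAC-seq, in which a transposase cuts and tags accessible DNA, was run on 50000 cells in each of 2 libraries, replicates 1 and 2 of 1 group. No treatment, mutation or other cell type was included. Both replicates carry the same donor record, and whether separate mice were used is not stated, so the spread between them may be technical.

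Open chromatin far from genes is typically made of enhancers, which are bound by cell-type transcription factors and act on genes over long distances, and of insulators, which are bound by CTCF and anchor chromatin loops. In the myeloid lineage, PU.1 (an ETS factor), the C/EBP family, RUNX1 and AP-1 factors are the usual occupants of such enhancers. Stretches of the genome with few genes, called gene deserts, often flank genes of development and of neurons, whose distant enhancers are generally closed in blood cells.

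The labelled cell type was checked at the promoters of fixed marker genes, within 1 kb of any TSS. Of 10 neutrophil markers, 9 had an open region in replicate 1 and 4 in replicate 2, and Ly6g had none in either. The B cell markers Cd79a and Ms4a1 were open in both replicates, and 1 of 3 T cell markers (Cd3d) was open in both. The 2 monocyte markers, Ccr2 and Csf1r, were open in neither list. In the conservative list the signal values at these promoters were 5.88 to 20.3 for 8 neutrophil markers and 13.5 and 13.8 for Cd79a and Ms4a1. The signal value is a score of each peak from the authors' processing. Its definition is not given in the sources used here, so it only describes and ranks regions within a list. How far other blood cells contributed to the regions far from genes was not tested.

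The sequences around the summits show what these regions were made of. Each run below is the 101 bp centred on a summit, on the plus strand of GRCm38 (mm10), from RefSeq GRCm38.p6. Capitals mark a motif string on either strand. The first is the region with the highest signal value of the 364, chr6:9889979-9890079, whose nearest protein-coding TSS is that of Nxph1 at 940.4 kb, and it held none of the strings searched. The next 5 are the strongest regions with the string of CTCF (chrX:94865646-94865746, 141 kb from Zxdb), of PU.1 (chr4:71489033-71489133), of CEBP (chr3:15276026-15276126), of RUNX (chr14:36316843-36316943) and of AP-1 (chr17:51382708-51382808). In those 5 only the named string is in capitals.

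Highest signal, no string: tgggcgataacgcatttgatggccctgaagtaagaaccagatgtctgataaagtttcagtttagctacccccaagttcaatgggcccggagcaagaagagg
CTCF, 2 matches on the plus strand: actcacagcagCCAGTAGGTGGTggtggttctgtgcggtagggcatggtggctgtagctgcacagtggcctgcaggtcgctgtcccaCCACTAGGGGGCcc
PU.1: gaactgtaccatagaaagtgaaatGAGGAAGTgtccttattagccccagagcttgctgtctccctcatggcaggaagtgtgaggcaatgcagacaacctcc
CEBP: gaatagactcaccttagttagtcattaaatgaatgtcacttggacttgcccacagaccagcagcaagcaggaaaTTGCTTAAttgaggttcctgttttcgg
RUNX, 2 matches on the minus strand: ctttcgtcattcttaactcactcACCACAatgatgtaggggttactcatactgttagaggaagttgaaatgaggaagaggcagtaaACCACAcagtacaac
AP-1: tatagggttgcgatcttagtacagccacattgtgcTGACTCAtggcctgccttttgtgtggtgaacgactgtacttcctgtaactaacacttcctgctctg

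All 5 were found in both replicate lists. The CTCF example had signal values of 21.01 in replicate 1 and 17.4 in replicate 2. The PU.1 example had 21.1 and 14.9, the CEBP example 23.6 and 14.7, the RUNX example 19.1 and 18.4, and the AP-1 example 17.9 and 12.1.

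A further 6 sequences, from near 2 genes of neutrophil life, were chosen after their values were seen. Trib1 encodes a pseudokinase that directs C/EBPα to degradation, and 3 regions stood 79.7, 90.7 and 96.1 kb downstream of its TSS. Cxcr4 encodes the chemokine receptor that holds neutrophils in the bone marrow, and 3 regions stood 83.4, 232 and 240.5 kb upstream. In these 6 every string searched is in capitals.

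Trib1, chr15:59728273-59728373: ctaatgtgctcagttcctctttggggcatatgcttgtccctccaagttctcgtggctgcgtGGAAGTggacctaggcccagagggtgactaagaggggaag
Trib1, chr15:59739334-59739434: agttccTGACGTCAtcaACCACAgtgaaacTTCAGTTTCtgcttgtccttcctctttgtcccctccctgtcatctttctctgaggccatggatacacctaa
Trib1, chr15:59744696-59744796: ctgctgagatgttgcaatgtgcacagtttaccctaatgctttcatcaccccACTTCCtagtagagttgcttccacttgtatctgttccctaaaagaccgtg
Cxcr4, chr1:128675692-128675792: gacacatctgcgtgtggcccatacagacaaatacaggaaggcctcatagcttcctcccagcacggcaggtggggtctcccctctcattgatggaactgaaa
Cxcr4, chr1:128824379-128824479: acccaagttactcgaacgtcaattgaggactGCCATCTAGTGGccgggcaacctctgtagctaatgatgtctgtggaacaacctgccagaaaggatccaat
Cxcr4, chr1:128832727-128832827: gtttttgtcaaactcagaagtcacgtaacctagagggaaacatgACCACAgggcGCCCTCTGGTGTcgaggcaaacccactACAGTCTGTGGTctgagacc

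The Trib1 regions held the ETS string in the first and in the third and the CRE, RUNX and IRF strings in the second, and none held CTCF. Their signal values were 17.2, 17.1 and 16.1 in replicate 1 and 19.2, 16.3 and 10.9 in replicate 2, so all 3 were found in both lists. Of the Cxcr4 regions, the 2 distal ones held a CTCF string and the nearest one held no string. Their signal values in replicate 1 were 10.04, 8.98 and 13.5, in order of distance, and the farthest region, with 12.6, was the only one of the 3 also in the list of replicate 2.

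Open regions were sparse far from genes. Sequence that met both conditions of position amounted to 415 Mb, 15.7% of the known bases of the 21 chromosomes. The regions over 50 kb numbered 0.878 per Mb of it, against 5.71 per Mb for the 5559 intergenic regions that lay 1 to 50 kb from a TSS. The ratio of the densities was 0.154 (exact 95% interval 0.138 to 0.171, counting error only). It was 0.164 in the list of replicate 1 (448 such regions of 27709) and 0.148 in that of replicate 2 (152 of 14548). The share of all regions that lay over 50 kb from a TSS was 1.62% in replicate 1 and 1.04% in replicate 2, a mean of 1.33% ± 0.404 (SD, n = 2).

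The density fell with distance in every step of the conservative list. It was 8.46 per Mb at 1 to 5 kb, 7.83 at 5 to 10 kb, 5.77 at 10 to 20 kb, 3.35 at 20 to 50 kb, 1.26 at 50 to 100 kb and 0.387 beyond 100 kb. At 50 to 100 kb it was 1.56 per Mb in replicate 1 and 0.513 in replicate 2, and beyond 100 kb it was 0.454 and 0.177. Replicate 2 had fewer regions than replicate 1 at all distances, and its density at 5 to 10 kb (3.54) was no lower than at 1 to 5 kb (3.497).

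**Figure D1:**
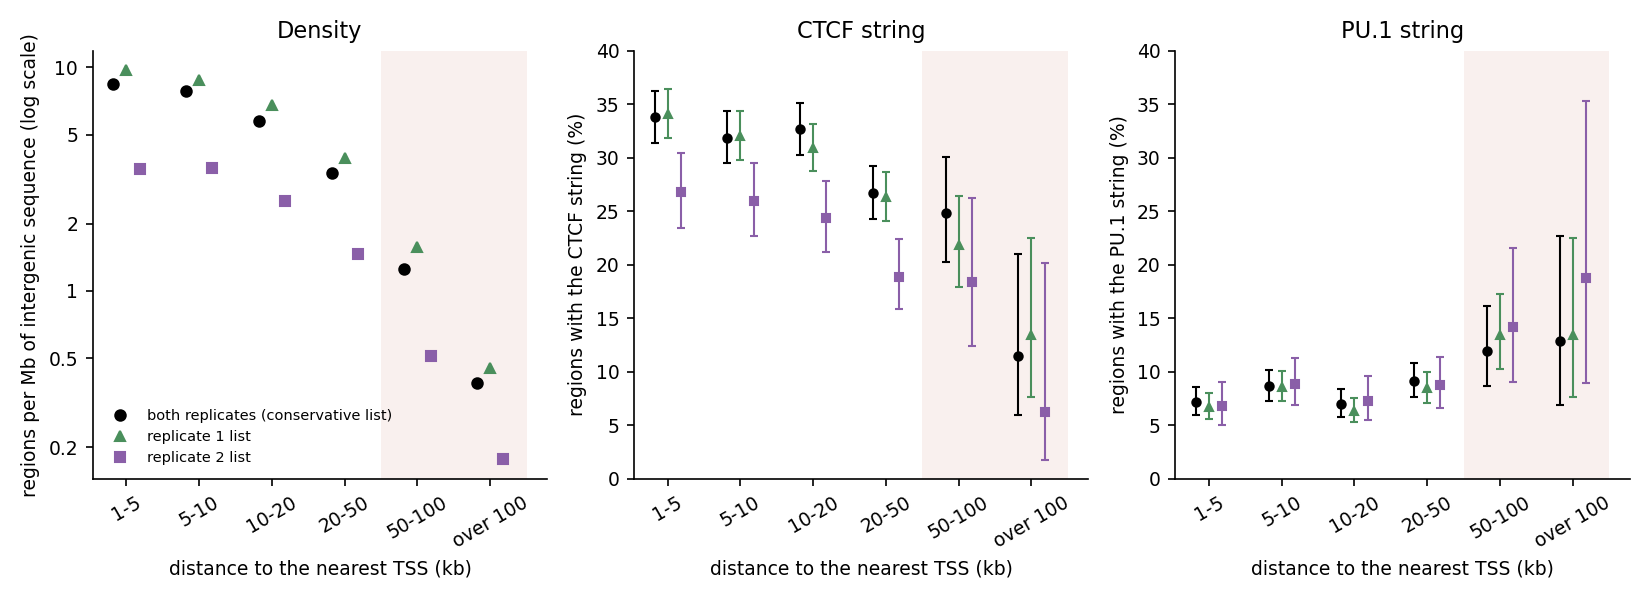
Density of intergenic regions (left, regions per Mb of intergenic sequence, log scale) and the percentage holding a CTCF string (middle) or a PU.1 string (right), by distance to the nearest TSS in kb, for the conservative list and the list of each replicate. Bars are 95% Wilson intervals and the shaded bins are the regions over 50 kb, where density was at most 1.56 per Mb, the CTCF share at most 24.8% and the PU.1 share at least 11.9% in all 3 lists.

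The 364 regions lay between 50.01 and 283 kb from the nearest TSS of any kind, with a median of 70.6 kb. Only 70 of them were over 100 kb away and 11 over 200 kb. The nearest TSS belonged to a protein-coding gene for 110 regions and to another kind of transcript, such as a lincRNA or pseudogene, for 254. To the nearest protein-coding TSS the median was 119 kb, and 20 regions were more than 500 kb from one. They were split evenly, with 179 upstream and 185 downstream of that TSS.

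The regions at the limit itself are given as a description. The 3 just inside it, at 50.01, 50.1 and 50.2 kb, had signal values of 9.01, 8.37 and 7.37. The 3 just outside it, at 49.8, 49.7 and 49.5 kb, had 11.1, 8.43 and 16.5.

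Regions over 50 kb had slightly higher signal values than intergenic regions at 1 to 50 kb, and lower ones than promoter regions, in the conservative list. Their median signal value was 11.4 (95% interval 10.7 to 11.9), against 10.52 (10.4 to 10.65, n = 5559) for intergenic regions 1 to 50 kb from a TSS and 12.501 at promoters. In replicate 1 the medians over 50 kb and at 1 to 50 kb were 10.4 (9.85 to 10.9) and 9.58 (9.51 to 9.71), and in replicate 2 they were 11.1 (10.4 to 11.9) and 10.6 (10.5 to 10.7), with intervals that overlapped. The authors' −log10 p had medians of 53.0 and 51.8, with overlapping intervals (47.9 to 57.3 and 50.9 to 52.7). The median widths were 358 bp (338 to 386) and 342 bp (336 to 347), and promoter regions were wider, at 543 bp. The windows around the summits held less G and C over 50 kb than at 1 to 50 kb, with medians of 49.5% and 52.5%, against 62.4% at promoters.

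The CTCF string was less frequent over 50 kb than in intergenic regions nearer to genes. It was searched as the core of the CTCF motif, 12 letters long, with at most 1 mismatch, and 18.9% of all 24882 regions and 8.24% of promoter regions held it. Of the regions over 50 kb, 81 held it, or 22.3% (18.3 to 26.8), against 31.4% (30.2 to 32.7) of intergenic regions at 1 to 50 kb. The difference was -9.17 percentage points (Newcombe 95% interval -13.3 to -4.47), which covers the counting error of regions only. It was -10.7 points in the list of replicate 1 (-14.3 to -6.53) and -8.39 in that of replicate 2 (-13.6 to -1.56), a mean of -9.52 ± 1.60 (SD, n = 2). All 3 intervals lay below 0. With no mismatch allowed the difference was -3.32 points and its interval (-6.09 to 0.250) included 0.

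Within the group the share was lower beyond 100 kb, although the intervals met. At 50 to 100 kb 24.8% of regions held the CTCF string (73 of 294, interval 20.2 to 30.1), and beyond 100 kb 11.4% did (8 of 70, 5.91 to 20.96). In replicate 1 these shares were 21.9% and 13.4%, and in replicate 2 they were 18.3% and 6.25%, the last from 2 of 32 regions. Introns at the same distance held fewer CTCF strings: 14.4% of 278 intronic regions over 50 kb from a TSS, a difference of 7.86 points (1.78 to 13.7). In windows 1 kb to either side of the summits only 0.567% of 705 windows held the string.

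The PU.1 string GAGGAAGT and the shorter ETS string GGAAGT, which is the end of the PU.1 string and is counted with it, were more frequent far from genes. PU.1 stood in 44 of the 364 regions, 12.1% (9.13 to 15.8), against 7.90% (7.22 to 8.64) at 1 to 50 kb and 6.15% of all regions. The difference was 4.19 points (1.14 to 8.003), and it was 5.96 in replicate 1 and 7.26 in replicate 2, a mean of 6.61 ± 0.925 (SD, n = 2). ETS stood in 118 regions, 32.4% (27.8 to 37.4), against 24.4% (23.3 to 25.6) at 1 to 50 kb and 23.3% of all regions. That difference was 7.97 points (3.23 to 13.1), with 9.31 in replicate 1 and 6.69 in replicate 2, where the interval (-0.450 to 14.7) included 0.

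For PU.1 and ETS, no difference from introns at the same distance could be seen at this number of regions. For PU.1 the intergenic share minus the intronic share of 11.9% was 0.217 points (-5.03 to 5.21), and for ETS, with 34.5% in introns, it was -2.11 points (-9.49 to 5.18). In windows 1 kb away from the intergenic summits the PU.1 string stood in 0.426% and the ETS string in 6.38% of 705 windows. So the strings were concentrated at the summits.

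The remaining strings differed less. IRF (GAAANNGAA) was held by 6.04% of the regions over 50 kb and 3.58% of those at 1 to 50 kb, a difference of 2.46 points (0.379 to 5.44), and POU (ATGCAAAT) by 3.02% and 1.35%, a difference of 1.67 points (0.304 to 3.996). Both intervals included 0 in replicate 2, where the counts were 9 and 3 regions. RUNX (TGTGGT) stood in 15.1% and 14.7%, CEBP (TTGCNNAA) in 7.97% and 6.55%, and AP-1 (TGANTCA) in 4.95% and 6.39%, with differences of 0.395 (-3.05 to 4.54), 1.42 (-1.04 to 4.72) and -1.44 points (-3.36 to 1.36). Each of those intervals included 0. Against introns over 50 kb, IRF was more frequent, by 3.53 points (0.244 to 6.74), with an interval that included 0 in replicate 2. For RUNX, CEBP, AP-1 and POU the interval against introns included 0 in the conservative list. In the replicate lists AP-1 was lower than in introns, by -3.72 points (-7.51 to -0.301) in replicate 1 and -6.77 (-14.2 to -0.491) in replicate 2. POU was higher in replicate 1 only, by 2.36 points (0.0523 to 4.63). Over all 24882 regions the shares were 2.998% for IRF, 1.31% for POU, 10.7% for RUNX, 5.08% for CEBP and 4.74% for AP-1. In windows 1 kb from the summits of the regions over 50 kb, RUNX stood in 8.79%, CEBP in 5.11%, IRF in 4.40% and AP-1 in 3.83%, so that for CEBP, IRF and AP-1 the summits (7.97%, 6.04% and 4.95%) stood little above the surrounding sequence. The other 10 strings were held by 0 to 4.67% of the regions over 50 kb, and no interval of their difference excluded 0. KLF or SP (CCCGCCC), frequent at promoters (24.6%), was held by 1.65% of the regions over 50 kb and 13.2% of all regions.

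**Figure D2:**
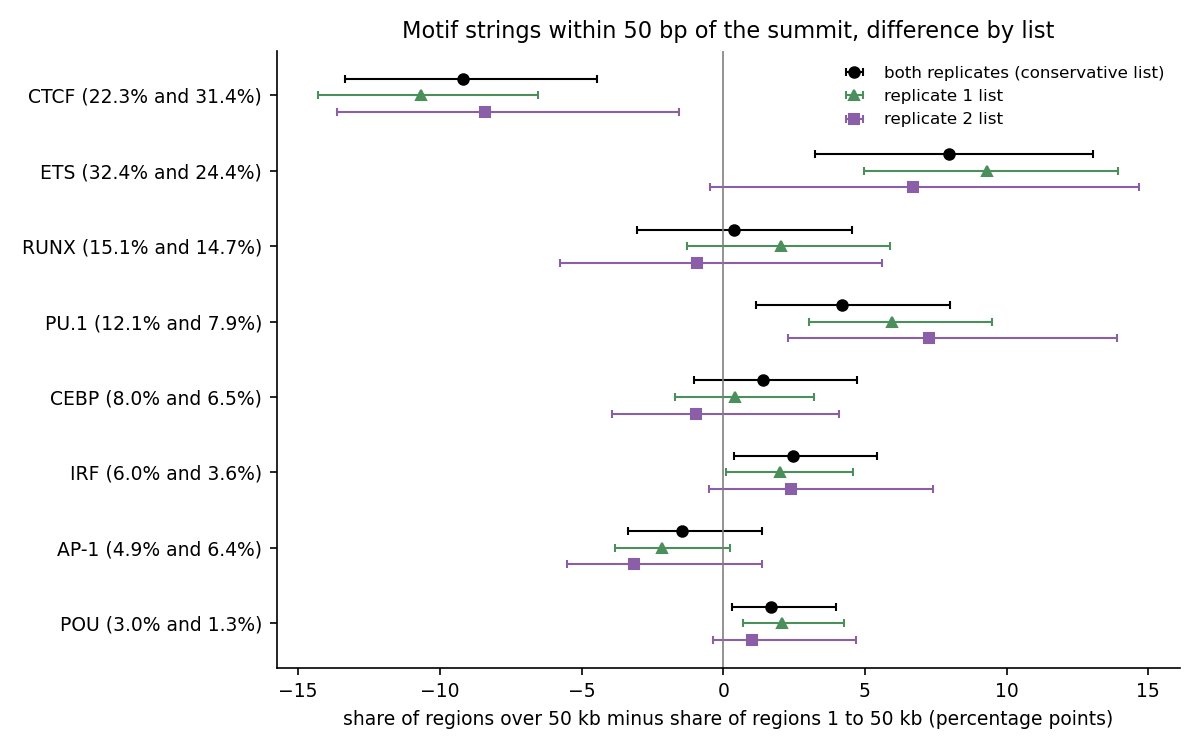
Share of intergenic regions over 50 kb minus share of intergenic regions 1 to 50 kb from a TSS that held each of 8 motif strings within 50 bp of the summit, in percentage points, for the conservative list and the list of each replicate. Bars are Newcombe 95% intervals and the percentages beside each name are the 2 shares in the conservative list; CTCF lay below 0 and PU.1 above 0 in all 3 lists.

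Because the windows far from genes held less G and C, the shares were also compared among regions of like composition. Among regions whose windows held 45 to 55% G and C, a setting chosen after the data were seen, the CTCF string stood in 21.5% of 195 regions over 50 kb and in 30.5% of 2945 at 1 to 50 kb. The PU.1 string stood in 13.8% and 8.76%, a difference of 5.09 points (0.796 to 10.7). The direction of both was as in all regions. For POU the difference in this setting was 0.659 points (-0.685 to 3.78) and for IRF 2.38 points (-0.320 to 6.72).

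Strong regions far from genes held the PU.1 string more often than weak ones. In quartiles of 91 regions by signal value, from lowest to highest, the string stood in 4.40%, 9.89%, 14.3% and 19.8%. In that list the interval of the highest quartile (12.9 to 29.1) did not meet that of the lowest (1.72 to 10.8). At 1 to 50 kb the quartiles held 7.99%, 7.70%, 7.19% and 8.71%. When regions over 50 kb were ranked within each replicate's own list, the highest and the lowest quartile held 18.8% (12.6 to 27.0) and 7.14% (3.66 to 13.5) in replicate 1, and 18.4% (9.22 to 33.42) and 2.63% (0.466 to 13.5, 1 of 38 regions) in replicate 2. Within each replicate the intervals overlapped, and the share did not climb at every step. The CTCF string showed no such order over 50 kb, with 27.5%, 20.9%, 19.8% and 20.9% from the lowest quartile to the highest.

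**Figure D3:**
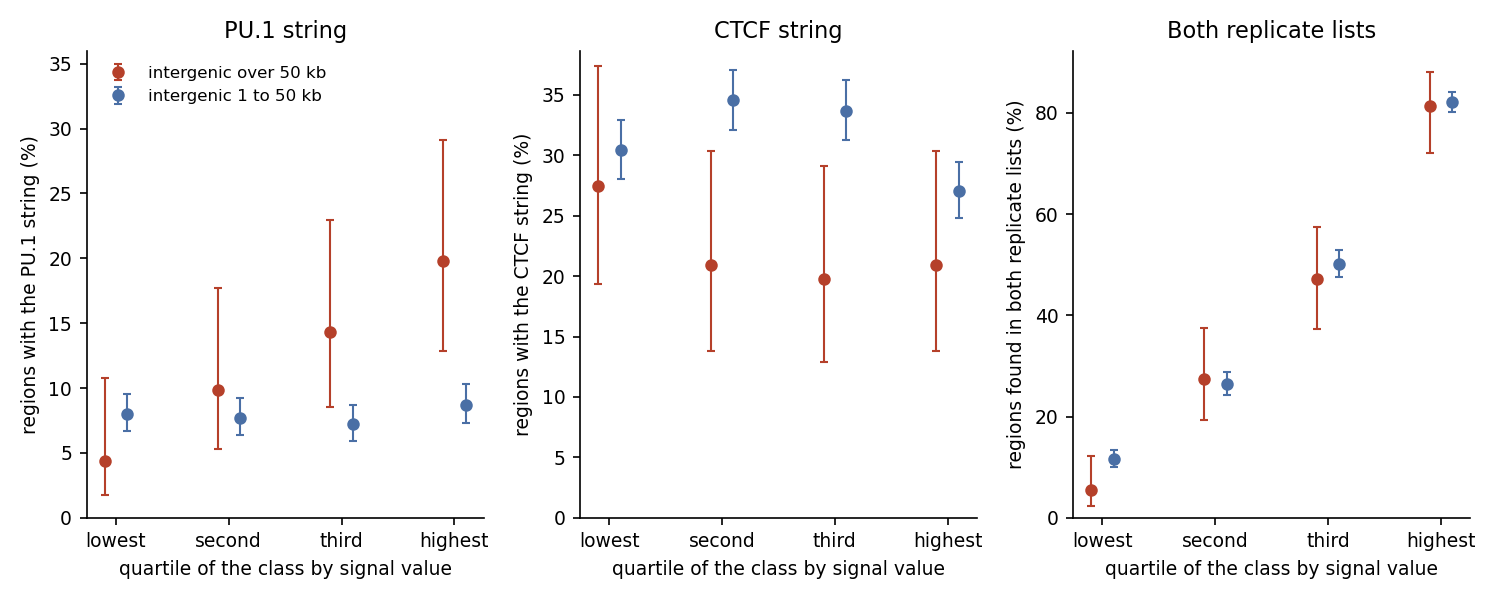
Percentage of intergenic regions over 50 kb (red, left of each pair) and 1 to 50 kb from a TSS (blue) that held the PU.1 string, held the CTCF string or were found in both replicate lists, by quartile of each class by signal value in the conservative list. Bars are 95% Wilson intervals; the PU.1 share was 4.40% in the lowest and 19.8% in the highest quartile over 50 kb, while at 1 to 50 kb every quartile was between 7.19% and 8.71%.

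The regions with a CTCF string formed a recognisable group. In 52 of the 81 (64.2%) the string lay within 20 bp of the summit, and the median distance was 13.5 bp. An exact match stood in 35 and a match with 1 mismatch in 46, on the plus strand in 36 and on the minus strand in 45. They were narrow, with a median width of 276 bp (262 to 300), against 392 bp (362 to 422) for the 283 without the string. Another of 5 strings (PU.1, CEBP, RUNX, AP-1 or IRF) stood in 14.8% of those with CTCF and 43.5% of those without, a difference of -28.6 points (-37.1 to -17.8). Signal values had overlapping intervals, with medians of 11.0 (9.40 to 11.9) and 11.5 (10.7 to 12.1). At 1 to 50 kb the widths showed the same contrast, 280 and 388 bp. So did the 5 strings there, with 17.0% and 41.7%, a difference of -24.7 points (-27.0 to -22.3).

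Most regions far from genes were listed in replicate 1 but fewer than 1 in 2 in replicate 2. Of the 364, 325 (89.3%) overlapped a region of the replicate 1 list and 148 (40.7%) one of the replicate 2 list. Both lists held 147 (40.4%, 35.5 to 45.5), against 42.6% (41.3 to 43.9) of intergenic regions at 1 to 50 kb and 74.4% of promoter regions. The difference from 1 to 50 kb was -2.25 points (-7.33 to 3.03), and its interval included 0. In the authors' less strict lists of pseudoreplicated peaks, both replicates held 324 of the 364 (89.0%) and 90.8% of those at 1 to 50 kb.

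Regions with a CTCF string were found in both replicates less often than those without. Both lists held 28.4% of the 81 with the string and 43.8% of the 283 without, a difference of -15.4 points (-25.9 to -3.38). The contrast lay in the list of replicate 2, where the shares were 28.4% and 44.2%, while in replicate 1 they were 87.7% and 89.8%. At 1 to 50 kb the difference for both lists was -14.0 points (-16.7 to -11.3). The replicates differed in the number of listed peaks, 34409 and 18367, and its part in this contrast was not tested.

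Across the 147 regions in both lists, the Spearman correlation of the signal values of replicates 1 and 2 was 0.685, and the Pearson correlation of their log2 values was 0.724. Both describe how the regions of these 2 libraries line up and carry no test, because regions are not independent replicates. Replicate 1 ranged from 7.35 to 26.4 with a median of 13.0, and replicate 2 from 6.78 to 31.9 with a median of 11.2. The share found in both lists climbed with the signal value of the conservative list, from 5.49% in the lowest quartile to 81.3% in the highest. That signal value was made from the same 2 libraries, so such a rise is built in and is given as a description. At 1 to 50 kb the share likewise ran from 11.7% to 82.2%.

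**Figure D4:**
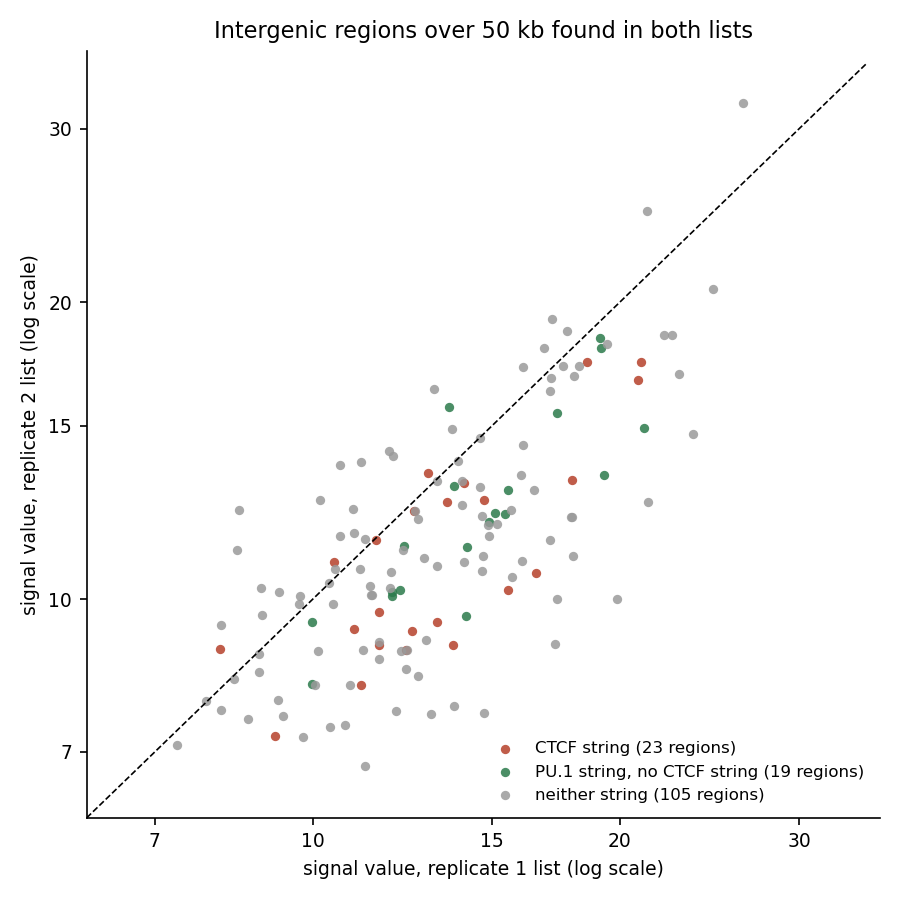
Signal values (the authors' score, log scales) of the 147 intergenic regions over 50 kb that overlapped a region in both replicate lists, replicate 1 on the horizontal and replicate 2 on the vertical axis; each point is a region and the dashed line marks equal values. Points are coloured by the string held within 50 bp of the summit (CTCF, PU.1 without CTCF, or neither), and they range from 7.35 to 26.4 in replicate 1 and from 6.78 to 31.9 in replicate 2.

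The 10 regions with the highest signal values, 21.4 to 31.8, were all found in both lists, with 19.4 to 26.4 in replicate 1 and 14.7 to 31.9 in replicate 2. Only 2 held a CTCF string, none held PU.1, and 7 held neither CTCF nor any of the 5 strings of PU.1, CEBP, RUNX, AP-1 and IRF. Their nearest protein-coding genes were Nxph1 (a secreted ligand of neurexins), Epha7 (an ephrin receptor), Nubpl (which helps to assemble respiratory complex I), Zxdb, Gm9733, Kctd8 (an auxiliary subunit of GABA-B receptors), Tyrp1 (an enzyme of melanin synthesis), Rnd3 (a small GTPase-like protein of the cytoskeleton), Klf4 (a transcription factor of monocyte development) and Samsn1 (an adaptor protein of blood cells). The distances to their TSS were 940.4, 636, 139, 141, 56.2, 606, 523, 307, 292 and 53.7 kb, in that order. Among the 7 above, the region near Tyrp1 held ETS, that near Epha7 the glucocorticoid receptor string and that near Samsn1 STAT.

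The region with the highest signal value of the 364 resembled mitochondrial DNA. Within chr6:9889882-9890221, 310 bp matched the mitochondrial genome at 95.5% identity. Such copies of mitochondrial DNA inserted in chromosomes are known as NUMTs. Its signal values were 26.4 in replicate 1 and 31.9 in replicate 2, and only 34.3% of the 32-bp words of its 101-bp window occurred once in the nuclear genome. How far reads from mitochondria contributed to it was not tested. No other region over 50 kb matched, and 5 of 5559 at 1 to 50 kb did. The region with the second-highest signal, chr4:28176759-28177197 near Epha7, had 65.7% of its words unique, and the other 8 of the 10 were unique throughout.

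Few summits lay in repeats, far from genes as well as nearer to them. A summit lay in soft-masked repeat sequence in 34 of the 364 regions (9.34%, 6.76 to 12.8), against 8.56% at 1 to 50 kb, a difference of 0.778 points (-1.91 to 4.28). The sequence available over 50 kb from a TSS was 41.9% masked and that at 1 to 50 kb 44.1%. All words of the window were unique in 337 regions (92.6%, 89.4 to 94.9), against 92.9% at 1 to 50 kb. Under 50% of the words were unique in 9 regions, of which 3 lay on chromosome Y.

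Some of the regions over 50 kb lay close to one another. When summits within 20 kb of the next were joined, 217 regions stood alone and 147 (40.4%) fell into 60 clusters, of which 18 held 3 or more. The same count was not made for other classes, so whether this share is unusual was not tested. The clusters spanned 0.9 to 40.6 kb, and the short ones were neighbouring peaks, such as 3 regions near Dcn within 1.52 kb. The nearest open region of any class was at a median of 20.8 kb, and 63 regions had none within 100 kb. A total of 228 protein-coding genes were the nearest to at least 1 region, and 148 of them to only 1.

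The gene with the most regions was Pced1b on chromosome 15, with 8, followed by Rplp1 with 6. Then came S1pr1, which encodes the sphingosine 1-phosphate receptor that guides lymphocytes out of tissues, Atp2b1, which encodes a calcium pump of the plasma membrane, and Kcnrg, a regulator of potassium channels, with 5 each. Dcn and Rybp also had 5, and the highest signal value of each was lower. The largest cluster, chr15:97458161-97498738, held 7 regions 97.1 to 137 kb downstream of Pced1b, with signal values of 5.10 to 12.1. Of the 7, 6 overlapped a region of the replicate 1 list and 1 a region of the replicate 2 list. The summits of the regions of 5.10, 5.14 and 11.6 stood close together, at 10.6, 11.0 and 11.8 kb from the first summit of the cluster. The regions of 5.14 and 11.6 had the same replicate 1 value, 12.6, and may overlap a single replicate 1 region.

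The next, chr9:61679747-61708300, held 6 regions 206 to 235 kb downstream of Rplp1, which encodes a ribosomal protein, with signal values of 5.40 to 12.3, 5 of them in replicate 1 and 3 in replicate 2. Its regions held 1 CTCF string, 1 PU.1 string and 2 RUNX strings. The third, chr8:115398042-115428362, held 4 regions 279 to 309 kb downstream of Maf, which encodes a transcription factor of macrophages and lymphocytes. Their signal values ran from 9.25 to 20.8 and were 9.71 to 19.2 in replicate 1, which listed all 4, and 12.1 to 17.96 in replicate 2, which listed 3. The strongest of the 4 held the PU.1, ETS and POU strings and none held CTCF. A cluster of equal size upstream of Atp2b1, chr10:98774846-98792655, had 4 regions with signal values of 7.02 to 19.1, of which 2 held the PU.1 string, 2 held RUNX and none held CTCF.

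**Figure D5:**
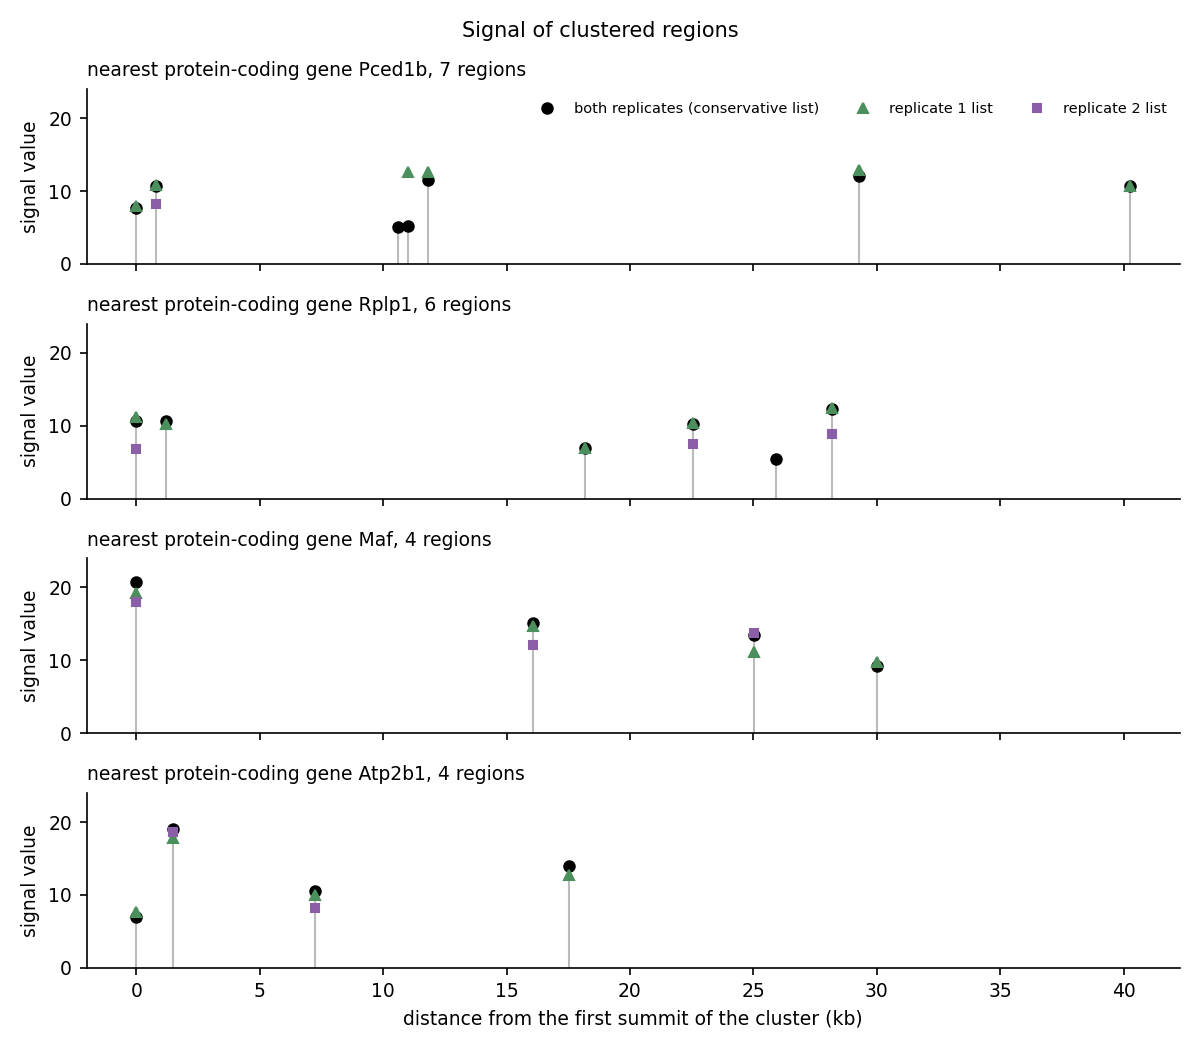
Signal values (the authors' score) of the regions in the 4 largest clusters, against the distance in kb from the first summit of each cluster, in the conservative list (circles) and in the list of each replicate (triangles and squares); a missing triangle or square means no overlapping region in that list. The Pced1b cluster had 7 regions of at most 12.1, and the Maf and Atp2b1 clusters had 4 each, reaching 20.8 and 19.1.

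Some gene lists had more of these regions nearby in the conservative list than the amount of sequence near them would give. They were the lists of myeloid transcription factors, neutrophil genes, cytokine genes and B cell genes, while the neuronal list had fewer. The surplus came from few genes: 5 of the myeloid list, 2 of the neutrophil list, and 1 each of the cytokine and B cell lists. It therefore describes those loci and not the lists as a whole. Each eligible base was given to its nearest protein-coding TSS, so that a list's share of the sequence gave the number of regions an even spread would place there. Over all genes the density was 0.878 per Mb. An even spread takes no account of distance, although density was 1.26 per Mb at 50 to 100 kb and 0.387 beyond 100 kb. How far the distances of each list's sequence shaped these counts was not tested. For 47 myeloid transcription factors there were 9 regions on 1.87 Mb, or 4.81 per Mb, against 1.64 regions by sequence. They lay nearest to Runx3 (3), Jun (2), Klf4 (2), Myc (1) and Runx1 (1), so 42 of the genes had none. The list had 10 regions in replicate 1, against 2.02 by sequence, and 2 in replicate 2, against 0.686.

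Runx3 and Runx1 encode RUNX factors. A region 52.0 kb downstream of Runx3 had signal values of 11.9 in replicate 1 and 14.1 in replicate 2, and the 2 regions upstream of it were listed in replicate 1 only. The 2 Klf4 regions, 292 and 285 kb upstream, had 20.9 and 10.2 in replicate 1, and only the stronger was in replicate 2, with 16.7. It held a CTCF string and the weaker a PU.1 string. The regions nearest to Jun and Myc, 226, 251 and 444 kb away, were listed in replicate 1 only, and that nearest to Runx1 in neither replicate alone.

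For 63 genes of mature neutrophils and their granules there were 6 regions on 1.14 Mb, against 1.00 by sequence, with 3 near Cxcr4 and 3 near Ctsc, and none near the other 61. Ctsc encodes cathepsin C, which activates the serine proteases of neutrophil granules. Its regions, 52.1, 75.9 and 85.1 kb upstream, had 9.51, 13.2 and 10.4 in replicate 1 and were absent from replicate 2, so of the 6 regions only 1, near Cxcr4, was in both. By list, replicate 1 had 7 regions near these genes and replicate 2 had 1.

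The lists of cytokines and of B cell genes held few regions, at densities near that of the neutrophil list: 4.47 and 5.25 per Mb, from 2 regions each. Of 39 cytokine and chemokine genes, Ifng alone had regions (2, against 0.393 by sequence), and of 20 B cell genes, Bcl11a alone (2, against 0.334). The 2 Ifng regions lay in 1 cluster of 6.74 kb. The B cell list had 5 regions in replicate 1, against 0.412 by sequence, or 13.1 per Mb, and none in replicate 2, in libraries where the promoters of the B cell markers Cd79a and Ms4a1 were open. None of the 28 genes in the T and NK cell list had one, against 0.686 by sequence, and Ifng was counted with the cytokines only. A count of 0 of 364 allows a share of up to 0.824% by a limit of 3 counts (the Wilson interval reaches 1.04%).

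Neuronal genes own much of the sequence far from genes, and both they and developmental genes held fewer regions than by sequence. The 99 genes of neuronal adhesion and synapses had 51.1 Mb, or 12.3% of the sequence, and 3 regions, against 44.9 by sequence, a density of 0.0587 per Mb. They were Epha7, with the second-highest signal value of the 364 (21.3 in replicate 1 and 24.7 in replicate 2), and the cadherin genes Cdh12 and Cdh20, whose regions had 8.40 and 10.6 in replicate 1, and of these only that of Cdh20 was in replicate 2, with 13.7. The unique share of the 32-bp words was 65.7% for the Epha7 region, 54.3% for that of Cdh20 and 100% for that of Cdh12. Replicate 1 had 3 regions near this list, against 55.2 by sequence, and replicate 2 had 2, against 18.7. The 100 developmental transcription factors had 11.2 Mb, or 2.69% of the sequence, and 4 regions, against 9.79 by sequence, nearest to Sox5 (2), Gata6 (1) and Sall3 (1). In replicate 1 the count was 6, against 12.0 by sequence, and in replicate 2 it was 1, against 4.09.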

How the data were processed

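ATAC-seq peak lists of 2 libraries were used; no read counts were used, so the depth is unknown and precision is limited to the counting of regions. Per the labels and the file headers the lists are on mm10, and the aligner and peak caller, their versions and any shift of reads at transposase cuts are not stated in these sources. The signal value in the deposited lists is a score given by the authors, and the −log10 p is the authors' too; neither is defined in the labels. The summit is the offset that the deposited lists give for each peak. The authors deposited a list per replicate passing the irreproducible discovery rate (IDR), a pseudoreplicated list per replicate, and lists from both replicates; the conservative IDR list is the main one. Merging of 33147 peaks, positions in GENCODE M21, and strings within 50 bp of the summit in RefSeq GRCm38.p6 (same build, coordinates from 1) were computed with Python 3.11.15, numpy 2.4.6, pandas 2.3.3 and scipy 1.17.1. Matches to the mitochondrial genome came from BLAST 2.17.0 at an E-value of 1e-10. Overlap needed 1 bp.

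With 1 group there is no comparison between groups of samples and no p-value; shares carry 95% Wilson intervals, medians order-statistic intervals, differences Newcombe intervals and the density ratio an exact binomial interval, all for counting error only. The motif search was tested on simulated sequence. Alternatives were other lists, each replicate alone, stronger regions, a limit of 100 kb, protein-coding genes only, exact CTCF matches, wider windows and other overlaps. The members, the 18 strings, the 7 gene lists and the named genes (the 10 strongest regions, the 5 genes nearest to most regions, up to 3 genes a list, the 3 largest clusters, the strongest region for each of 5 strings) were chosen with earlier results of these data known. Dcn, Rybp, Trib1, the fourth cluster and the genes beyond 3 of a list were named after their values were seen. Sequence on chromosome 18 was not printed, and 1 marker gene is not reported here.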

Additional observations from a re-analysis of the deposited data

How the results depend on the processing

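The density ratio stayed below 1 (0.0678 to 0.185) and the CTCF difference below 0 under every alternative tried for them. The CTCF difference ranged from -19.998 points beyond 100 kb to -3.32 points (-6.09 to 0.250) with exact matches, where the interval included 0. With 1 replicate alone, the number of regions was 152 to 448, their share 1.04 to 1.62%, and the number of the 17 other strings whose interval excluded 0 was 1 to 4, against 4 in the conservative list. Among regions of 45 to 55% G and C it was 2. The number was 868 (1.94% of all) in the replicated list, 191 among the stronger regions, 70 (0.281%) beyond 100 kb and 1791 (7.20%) when only protein-coding genes counted; in the pooled IDR list the share was 1.69%. The difference in the share found in both lists was -4.53 points in the replicated list and -8.26 among the stronger regions, with intervals below 0, and 0.224 beyond 100 kb and 1.46 with protein-coding genes only, with intervals that included 0. The difference in masked summits was -1.38 points among the stronger regions. The cause of these changes was not tested. With 1 replicate alone, CEBP differed by -0.953 to 0.404 and RUNX by -0.925 to 2.03 points, and with windows of 100 bp AP-1 differed by 0.204. No paired analysis was possible because there is 1 group. Unknown depth limits every count of regions, and 364 regions limit each share.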

Other observations

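The regions over 50 kb were unevenly spread over the chromosomes. Per Mb of eligible sequence the density was 1.77 on chromosome 13 (27 regions) and 1.76 on chromosome 19 (12 regions). It was 0.182 on chromosome X (6 regions on 33.0 Mb) and 0.374 on chromosome Y (4 regions). On chromosome X only the region near Zxdb was among the 10 strongest. The sex of the animals was not collected.

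The 4 regions on chromosome Y all lay nearest to Zfy1, which encodes a zinc finger protein, and 3 of them had windows in which no 32-bp word occurred once in the genome. Outside chromosome Y, such windows were found in a region near Zfp97 on chromosome 17, with signal values of 17.4 in replicate 1 and 15.4 in replicate 2, and in one near Cd47 on chromosome 16, with 10.1 and 8.86. Leaving out chromosome Y, an alternative chosen after the data were seen, gave a density ratio of 0.145 and a CTCF difference of -8.93 points.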
